A study of Mus musculus with 2 samples.

Results

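The nuclear-encoded subunits of the respiratory chain were examined in nucleoplasmic RNA of stimulated mouse macrophages. The genes were chosen by symbol: every gene with a protein-coding transcript whose symbol has the form of a subunit of complex I (Ndufa, Ndufb, Ndufc, Ndufs or Ndufv with a number), complex II (Sdha to Sdhd), complex III (Uqcr and Cyc1), complex IV (Cox4 to Cox8) or complex V (Atp5). This gave 85 gene identifiers of 21901 with a protein-coding transcript. They carried 84 symbols, because Atp5o stood for 2 identifiers. By symbol, complex I supplied 36 genes, complex II 4, complex III 9, complex IV 18 and complex V 18. This placement was not checked against the structure of the complexes. The choice went by symbol alone, so Ndufab1, the acyl carrier protein of complex I, is not among them, while Cox7a2l, known for its part in joining complexes III and IV into supercomplexes, is.

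The respiratory chain lies in the inner mitochondrial membrane. Complexes I and II pass electrons from NADH and succinate to ubiquinone, complex III passes them on to cytochrome c, and complex IV gives them to oxygen. Complexes I, III and IV pump protons, and complex V, the ATP synthase, uses the gradient to make ATP. Most subunits are encoded in the nucleus, transcribed there and translated in the cytosol, while a small core of complexes I, III, IV and V is encoded by the mitochondrial genome. In macrophages activated by bacterial products, metabolism is known to move from oxidative phosphorylation towards glycolysis.

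The samples formed 1 group of 2 replicates. Primary macrophages grown from the bone marrow of C57BL/6J mice had received lipid A, a bacterial membrane lipid that signals through TLR4, for 90 min at 100 ng/ml, and RNA of the nucleoplasmic fraction was sequenced after depletion of ribosomal RNA. Replicate 1 began from 1 µg of RNA and replicate 2 from 500 ng. Both carry the same donor entry, and differences between them may in part be technical. Sex and age were not collected. Unstimulated cells and other fractions were not analysed here, so the values describe the stimulated state and no condition could be tested.

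In the first of the 2 deposited quantifications, estimated counts summed to 22669533 for replicate 1 and 14939143 for replicate 2. All 8 macrophage marker genes stood above 10 TPM in both replicates (TPM is a level scaled for transcript length and to a fixed total per library), with Lyz2 at 916 and 1103 TPM. None of the 20 marker genes of T cells, B cells, neutrophils, erythroid, stromal and muscle cells reached 1 TPM in both replicates in that quantification. In the second, 1 of them did, Cd3d of T cells, with 3.01 and 13.1 TPM. The 13 subunit genes of mitochondrial DNA took 4.81% of all counts in replicate 1 and 12.1% in replicate 2. Nuclear purity was not measured otherwise. In bulk RNA, fewer cells and less RNA per cell cannot be told apart.

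Promoter windows were at hand for 68 of the 84 symbols, from 250 bases before to 50 bases after the start site (RefSeq, build GRCm38.p6). Respiratory chain genes are known targets of NRF1, of the ETS-family factor GABP and of YY1, so 3 letter strings were searched on both strands: GCGCATGC for NRF1, CCGGAAG for ETS factors and AAGATGGCG for YY1. The string for NRF1 was held by 10 of the 68 (14.7%), against 6.42% of 6887 expressed protein-coding genes and 3.05% of all 27025 genes with a window. The string for YY1 was held by 7 (10.3%), against 4.25% and 1.64%. The string for ETS factors was held by 16 (23.5%), against 23.3% and 9.93%, so its share was close to that of expressed genes. A TATA string, TATAAA, was held by 7 (10.3%), against 8.49% and 15.7%. At least 1 of the strings for NRF1, ETS factors and YY1 was held by 27 of 68 (39.7%), against 31.0% and 13.6%. A match of letters is a description and does not show binding.

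The windows below show 1 gene of each complex with such matches in capitals, and Atp5b, the gene with the highest level, in whose window none of the 3 strings occurs. Atp5k, Cox6a1, Sdhb and Uqcr11 were chosen because they hold strings for both NRF1 and ETS factors, and Ndufs7 because its string for YY1 lies just after the start site. Each runs 5′ to 3′ along the gene's own strand. Atp5k lies at chr5:108434350-108434649 (minus strand), Cox6a1 at chr5:115348909-115349208 (minus), Sdhb at chr4:140961021-140961320 (plus), Uqcr11 at chr10:80406772-80407071 (minus), Ndufs7 at chr10:80249199-80249498 (plus) and Atp5b at chr10:128083057-128083356 (plus).
Atp5k: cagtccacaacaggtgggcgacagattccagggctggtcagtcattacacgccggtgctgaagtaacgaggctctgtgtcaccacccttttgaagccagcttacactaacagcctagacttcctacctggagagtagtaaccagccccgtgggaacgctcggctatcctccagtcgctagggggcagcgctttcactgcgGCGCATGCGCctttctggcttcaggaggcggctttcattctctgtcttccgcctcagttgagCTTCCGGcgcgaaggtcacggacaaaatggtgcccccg
Cox6a1: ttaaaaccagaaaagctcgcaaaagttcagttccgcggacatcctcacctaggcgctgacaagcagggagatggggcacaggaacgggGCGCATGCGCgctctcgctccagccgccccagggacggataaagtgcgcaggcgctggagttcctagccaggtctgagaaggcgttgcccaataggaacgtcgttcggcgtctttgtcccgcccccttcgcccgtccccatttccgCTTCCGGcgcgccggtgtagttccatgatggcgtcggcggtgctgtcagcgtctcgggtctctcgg
Sdhb: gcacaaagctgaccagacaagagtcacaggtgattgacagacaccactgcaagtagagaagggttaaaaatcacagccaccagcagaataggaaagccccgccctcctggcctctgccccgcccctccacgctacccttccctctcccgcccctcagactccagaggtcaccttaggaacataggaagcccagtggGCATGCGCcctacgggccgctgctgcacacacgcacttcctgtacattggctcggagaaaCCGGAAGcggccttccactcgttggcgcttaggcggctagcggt
Uqcr11: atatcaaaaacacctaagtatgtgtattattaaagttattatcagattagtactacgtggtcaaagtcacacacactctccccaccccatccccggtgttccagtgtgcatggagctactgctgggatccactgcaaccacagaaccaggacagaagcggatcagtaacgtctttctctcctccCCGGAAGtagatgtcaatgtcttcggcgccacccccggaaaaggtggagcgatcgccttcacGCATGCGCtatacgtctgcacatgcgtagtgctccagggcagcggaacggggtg
Ndufs7: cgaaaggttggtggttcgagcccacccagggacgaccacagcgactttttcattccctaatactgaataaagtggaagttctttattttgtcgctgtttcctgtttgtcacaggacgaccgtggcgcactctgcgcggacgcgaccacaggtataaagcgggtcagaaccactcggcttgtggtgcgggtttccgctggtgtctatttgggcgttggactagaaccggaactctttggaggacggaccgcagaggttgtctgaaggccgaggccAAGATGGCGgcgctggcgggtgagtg
Atp5b: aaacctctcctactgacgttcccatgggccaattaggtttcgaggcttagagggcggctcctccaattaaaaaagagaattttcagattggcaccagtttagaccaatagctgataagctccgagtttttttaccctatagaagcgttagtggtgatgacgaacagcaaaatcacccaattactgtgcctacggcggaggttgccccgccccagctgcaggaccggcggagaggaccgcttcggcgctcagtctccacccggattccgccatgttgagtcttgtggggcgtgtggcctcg

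In Atp5k and Cox6a1 the string for NRF1 was found on both strands, 2 bases apart, as 1 longer palindromic stretch. Counted from the first transcribed base as 0, the NRF1 match began at -50 in Atp5k, at -162 in Cox6a1, at -54 in Sdhb and at -4 in Uqcr11. Of the 7 matches for YY1, 6 began 20 to 40 bases after the RefSeq start site, among them Ndufs7 at 24, Ndufs4 at 35 and Ndufa9 at 29. The place of this string in other genes was not examined, so its place here cannot be called particular to the members. Of the 73 windows, 57 had a start within 100 bases of the outermost GENCODE start, and that of Ndufs7 did not. The 10 genes with the string for NRF1 had a median of 7.02 TPM (mean of both replicates), and the 52 expressed members without it 5.24 TPM. With and without the string for ETS factors the medians were 7.23 and 4.93 TPM, and for YY1 5.29 and 5.41 TPM. These differences were not tested.

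Of the 85 genes, 75 stood at 1 TPM or more in both replicates, against 39.1% of all genes with a protein-coding transcript. Their median was 5.07 TPM in replicate 1 and 5.73 TPM in replicate 2, below the 6.62 and 8.70 TPM of the 8565 expressed protein-coding genes. The lower and upper quartiles of the members were 3.79 and 9.90 TPM (mean of both replicates), and those of all expressed protein-coding genes 3.41 and 19.3 TPM. At 10 TPM or more in both replicates stood 16 of the 75 members, against 37.7% of the expressed protein-coding genes. Most subunits were thus detected, and few of them were abundant. Together the 85 genes took 0.0706% of all counts in replicate 1, with a 95% Wilson interval of 0.0695% to 0.0717%. In replicate 2 they took 0.0655%, with an interval of 0.0642% to 0.0668%. These intervals cover counting error only.

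**Figure D1:**
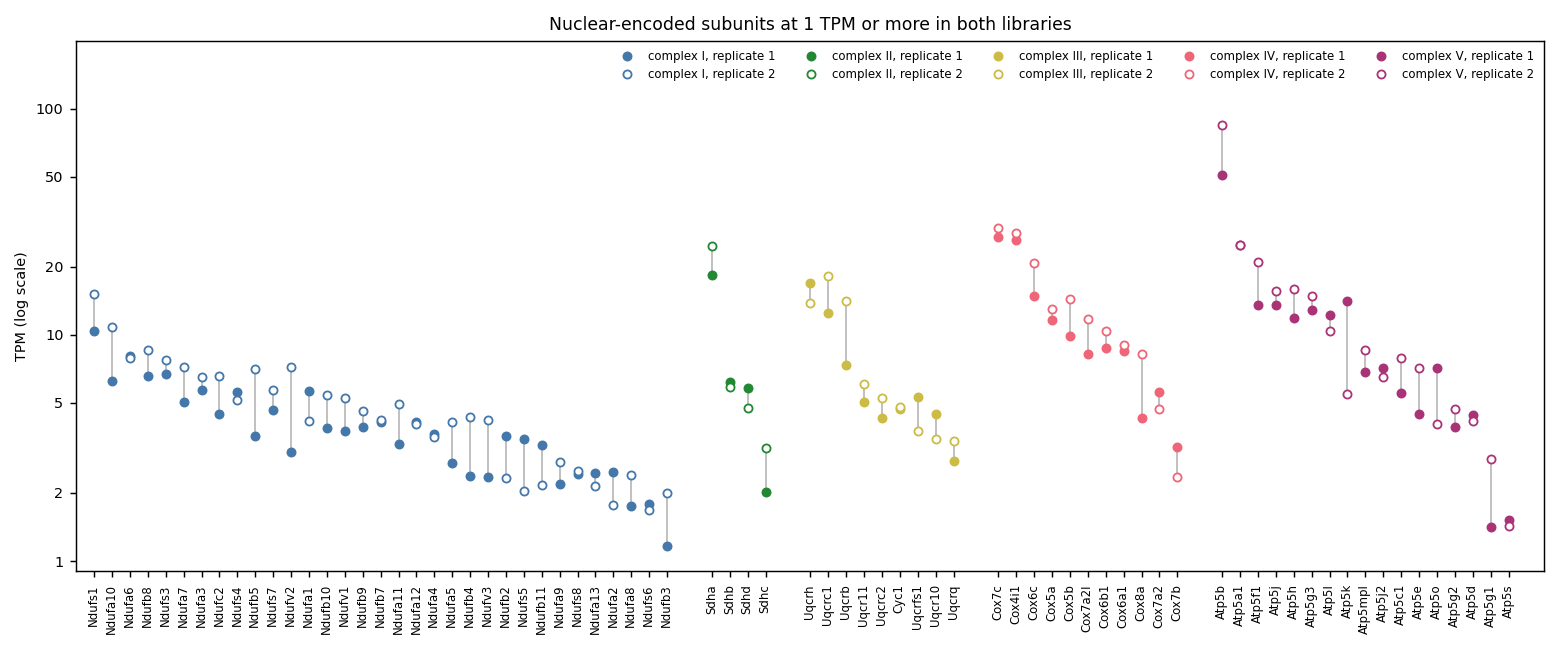
TPM on a log axis of 74 of the 75 expressed subunit genes, grouped by complex and ordered by mean level, with filled points for replicate 1, open points for replicate 2 and a line joining both. Atp5b stands above all others, and in complex II Sdha alone lies above 10 TPM.

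Complex I had the lowest median, 3.70 TPM in replicate 1 and 4.46 TPM in replicate 2 over 34 expressed genes. Its core subunits carry the electron path. Ndufs1, the largest iron-sulphur subunit, had 10.5 TPM in replicate 1 and 15.1 TPM in replicate 2. It stood above the core genes described next in both replicates.

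Ndufs3, a core subunit, had 6.74 TPM in replicate 1 and 7.71 TPM in replicate 2. Ndufs7, an iron-sulphur subunit, had 4.67 and 5.73 TPM. Ndufv1, which binds FMN and takes electrons from NADH, had 3.75 and 5.24 TPM. All 3 had higher values in replicate 2, as did most expressed genes on the TPM scale. Ndufv2, the iron-sulphur partner of Ndufv1, had 3.04 and 7.25 TPM, the largest fold between replicates among the core genes described here. Ndufs8, an iron-sulphur subunit, had 2.43 and 2.49 TPM in the first quantification but 9.60 and 10.3 TPM in the second, so its place in the order depends on the quantification.

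Outside the core, the 27 expressed genes placed in complex I by symbol had a median of 3.59 TPM in replicate 1 and 4.21 TPM in replicate 2. Ndufa10 was the highest of them by mean level, at 6.28 and 10.9 TPM. Ndufa7 had 5.07 and 7.25 TPM in the first quantification and 28.03 and 50.04 TPM in the second, the largest disagreement among the levels of the complex. Ndufb6 and Ndufc1 did not reach 1 TPM in both replicates. Ndufb6, with 1.43 and 0.29 TPM, rested on 21.7 and 2.20 estimated counts. Ndufc1 had 0.99 and 0.74 TPM.

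Complex II has 4 subunits, all nuclear-encoded. Sdha, the flavoprotein that oxidises succinate, had 18.4 TPM in replicate 1 and 24.8 TPM in replicate 2. Its iron-sulphur partner Sdhb had 6.19 and 5.88 TPM. The membrane anchors Sdhd and Sdhc had 5.80 and 4.77 TPM and 2.03 and 3.17 TPM. Sdha therefore stood above the other subunits in both replicates, and in this quantification Sdhc stood below them. In the second quantification Sdhc had 4.56 and 4.59 TPM, above the 3.95 and 3.19 TPM of Sdhd.

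Complex III had 9 genes, all expressed, with medians of 5.06 TPM in replicate 1 and 5.28 TPM in replicate 2. Uqcrh, the hinge protein, had 17.0 and 13.9 TPM. Uqcrc1, a core protein, had 12.5 and 18.1 TPM, while the second core protein, Uqcrc2, had 4.29 and 5.28 TPM. Uqcrb, a small subunit, had 7.33 and 14.2 TPM. The order of Uqcrh, Uqcrc1 and Uqcrb changed between replicates. In the second quantification Uqcrc2 lay nearer to Uqcrc1, with 9.46 and 8.42 TPM against 11.0 and 14.0 TPM.

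Among the subunits of complex III that carry electrons, Cyc1, cytochrome c1, had 4.71 TPM in replicate 1 and 4.79 TPM in replicate 2. Uqcrfs1, the Rieske iron-sulphur protein, had 5.31 and 3.77 TPM. The lowest gene of the complex in the first quantification was Uqcrq, with 2.77 and 3.40 TPM. In the second, Uqcrq had 2.82 and 4.99 TPM and Uqcrfs1 3.30 and 2.08 TPM, so the lowest place depends on the quantification.

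Complex IV showed the widest split of any complex. Its 11 expressed genes had medians of 8.79 TPM in replicate 1 and 11.7 TPM in replicate 2, the highest of the 5 complexes, while 7 other genes stood at or near 0. Cox7c had 27.0 and 29.8 TPM and Cox6c 14.9 and 20.7 TPM. Cox5a and Cox5b, which form part of the shell around the catalytic core, had 11.7 and 13.1 TPM and 9.91 and 14.4 TPM.

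The 7 low genes are forms that other tissues use. Several complex IV subunits come in a general form and in a second one that is known from heart and skeletal muscle (Cox6a2, Cox7a1, Cox8b), lung (Cox4i2) or testis (Cox6b2, Cox7b2, Cox8c). Cox4i1, the general form, had 26.3 TPM in replicate 1 and 28.1 TPM in replicate 2, and Cox4i2 0.11 TPM in each, from 2 counts and 1 count. Cox6a1 had 8.48 and 9.03 TPM, and Cox6a2 0.13 TPM from 2 counts in replicate 1 and 0 in replicate 2. In every one of these families, in the first quantification, the general form was expressed in both replicates and the tissue-restricted form was not.

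Cox6b1 had 8.79 TPM in replicate 1 and 10.4 TPM in replicate 2, and Cox6b2 was at 0 in both. The deposited intervals of Cox6b2 did not include this value, at 0.42 to 1.79 TPM in replicate 1 and 0.79 to 3.33 TPM in replicate 2. Cox7a2 had 5.61 and 4.68 TPM, its relative Cox7a2l 8.24 and 11.7 TPM, and Cox7a1 was at 0. Cox7b had 3.21 and 2.36 TPM, and Cox7b2 was at 0. Cox8a had 4.30 and 8.22 TPM, and Cox8b and Cox8c were at 0. A gene at 0 may have had up to 3 counts by sampling, or 0.135 CPM (counts per library size scaled by the trimmed mean method, TMM) in replicate 1 and 0.2004 CPM in replicate 2. The 4 muscle marker genes were likewise listed at 0 in both replicates, while the second quantification gave Ckm, the muscle creatine kinase, 0.90 and 1.52 TPM.

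The second quantification gave a few of these genes more: Cox7a1 had 1.40 TPM in replicate 1 and 3.94 TPM in replicate 2, Cox4i2 1.22 and 0.43 TPM, and Cox8b 0.22 and 1.18 TPM. Cox7a1 thereby passed 1 TPM in both replicates in that quantification, the exception among the 7. The coding sequences of the pairs are distinct. Identity over aligned bases was 69.6% for Cox4i1 and Cox4i2, 64.2% for Cox7a1 and Cox7a2, and 54.2% for Cox8a and Cox8b, and the longest identical runs were 14, 12 and 10 bases.

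The 3 forms of Cox8 are short enough to be shown whole, and they show how far the general form differs from the others. They are coding sequences without the stop codon from GENCODE M21 (mm10), 5′ to 3′. Capitals mark the longest run shared with Cox8a, or, in Cox8a, with Cox8b. The genes lie at chr19:7215153-7217616 (Cox8a, minus strand), chr7:140898945-140900446 (Cox8b, minus) and chr12:102899316-102900526 (Cox8c, plus).
Cox8a: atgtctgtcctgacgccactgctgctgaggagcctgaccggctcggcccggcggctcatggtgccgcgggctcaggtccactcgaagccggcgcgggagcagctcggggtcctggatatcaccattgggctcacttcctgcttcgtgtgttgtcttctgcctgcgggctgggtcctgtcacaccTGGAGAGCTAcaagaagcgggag
Cox8b: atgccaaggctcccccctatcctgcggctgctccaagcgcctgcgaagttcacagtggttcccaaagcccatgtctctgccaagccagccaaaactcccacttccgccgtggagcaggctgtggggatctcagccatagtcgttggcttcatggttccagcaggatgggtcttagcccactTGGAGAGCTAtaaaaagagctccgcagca
Cox8c: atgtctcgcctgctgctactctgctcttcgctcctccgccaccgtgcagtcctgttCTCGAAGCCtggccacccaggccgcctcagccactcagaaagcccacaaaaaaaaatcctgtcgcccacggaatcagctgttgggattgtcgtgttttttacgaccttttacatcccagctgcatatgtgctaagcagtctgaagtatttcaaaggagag

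**Figure D2:**
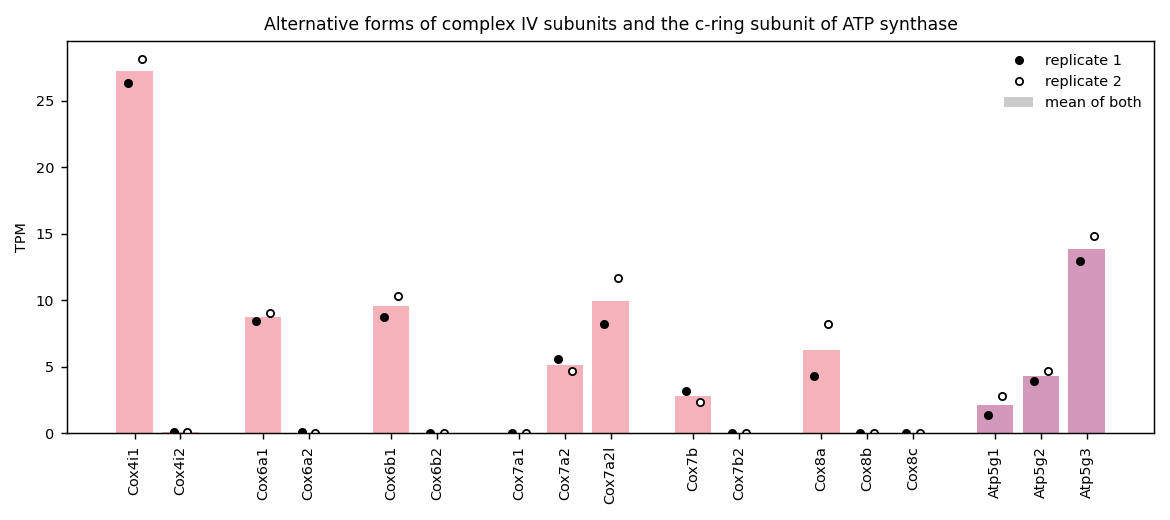
TPM of alternative forms of complex IV subunits and of the ATP synthase c subunit, with bars for the mean of both replicates, filled points for replicate 1 and open points for replicate 2. In each complex IV family the tissue-restricted forms, both of them in Cox8, lie at or near 0, while all 3 c-subunit genes are above it, with Atp5g3 the highest.

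Complex V held the most abundant member. Atp5b, the catalytic beta subunit, had 51.1 TPM in replicate 1 (deposited interval 45.2 to 55.6) and 84.8 TPM in replicate 2 (74.0 to 89.2). It was the only member above 50 TPM in both replicates. Its partner Atp5a1, the alpha subunit, had 25.02 and 24.86 TPM. The gene level of Atp5b was the higher in both replicates, while on protein-coding transcripts alone Atp5a1 stood higher, as given with the transcript makeup.

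The peripheral stalk genes Atp5f1, Atp5h and Atp5j lay together at 13.6, 11.9 and 13.6 TPM in replicate 1 and 20.99, 16.04 and 15.71 TPM in replicate 2. Atp5o, the stalk subunit that confers oligomycin sensitivity, had 7.17 and 4.03 TPM. Its second identifier, a longer locus on the same strand, was at 0 in both replicates. In the central stalk, Atp5c1 had 5.56 and 7.90 TPM, Atp5d 4.42 and 4.16 TPM and Atp5e 4.49 and 7.15 TPM. By these gene levels the central stalk genes lay below the 3 peripheral ones in both replicates. Summed over protein-coding transcripts alone the order was another: Atp5f1 had 1.29 and 2.35 TPM, Atp5h 5.12 and 9.19 TPM and Atp5j 2.37 and 2.23 TPM, while Atp5c1 kept 5.56 and 7.90 TPM.

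The c subunit, which forms the rotating ring, has 3 genes that encode the same mature protein. Atp5g3 had 12.9 TPM in replicate 1 and 14.9 TPM in replicate 2, Atp5g2 3.91 and 4.72 TPM, and Atp5g1 1.41 and 2.82 TPM. Atp5g3 thus had the highest gene level in both replicates. On protein-coding transcripts alone it had 5.51 and 5.50 TPM, nearer to the 3.91 and 4.72 TPM of Atp5g2. The second quantification gave Atp5g3 14.95 and 17.16 TPM, but put Atp5g2 below Atp5g1, with 1.42 and 2.33 TPM against 1.69 and 2.45 TPM. Atp5g1 and Atp5g2 share 76.5% of aligned coding bases. The lowest expressed gene among those placed in the complex by symbol was Atp5s, at 1.52 and 1.43 TPM.

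Levels of related gene groups were set beside those of the subunits. The 45 assembly factors, which build the complexes but are not part of them, had medians of 1.76 TPM in replicate 1 and 2.08 TPM in replicate 2, and 25 of 45 were expressed. Over those 25 the medians were 3.30 and 3.64 TPM, just below the 3.70 and 4.46 TPM of complex I. The highest by the mean of both replicates were Cox17, a copper chaperone of complex IV, with 44.4 and 33.5 TPM, Ttc19 with 9.84 and 17.2 TPM and Coa5 with 12.2 and 12.6 TPM. All 14 citric acid cycle genes were expressed, with medians of 7.72 and 10.4 TPM, led by Dlst with 43.7 and 65.6 TPM, Cs with 16.5 and 24.7 TPM and Dld with 13.4 and 20.2 TPM. The 21 electron carriers and other entry enzymes had medians of 2.75 and 3.40 TPM, or 6.16 and 5.65 TPM over the 15 expressed ones, and the highest were Slc25a3, the phosphate carrier, at 74.7 and 89.4 TPM, Gpd2 at 21.8 and 36.1 TPM and Ucp2 at 16.1 and 18.9 TPM.

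The 15 listed regulators of mitochondrial biogenesis had medians of 4.78 TPM in replicate 1 and 8.25 TPM in replicate 2, and 12 were expressed. Nfe2l2 had 57.6 and 87.6 TPM, Nfe2l1 23.3 and 44.7 TPM and Esrra, an orphan nuclear receptor, 11.1 and 20.4 TPM. Cytosolic ribosomal protein genes, another set of short nuclear genes for an abundant complex, had medians of 24.4 and 21.2 TPM over 86 genes, or 24.97 and 21.84 TPM over the 83 expressed ones. All these groups were described by their levels and were not tested against the subunits.

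The mitochondrial genome's own subunits were far more abundant in these libraries. In complex I the 7 mitochondrial genes had a median of 2701 TPM in replicate 1 and 10157 TPM in replicate 2, against 3.70 and 4.46 TPM for the nuclear genes. Over all complexes, the 13 mitochondrial genes took 68.1 times the counts of the 85 nuclear genes in replicate 1 and 184 times in replicate 2. Annotated pseudogenes that resemble 8 of the 13 mitochondrial genes held 300325 counts in replicate 1 and 440269 in replicate 2, summed by gene. These are counts of the first quantification, and the folds depend on how reads were assigned. How much mitochondrial RNA came with the nuclear fraction was not tested.

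**Figure D3:**
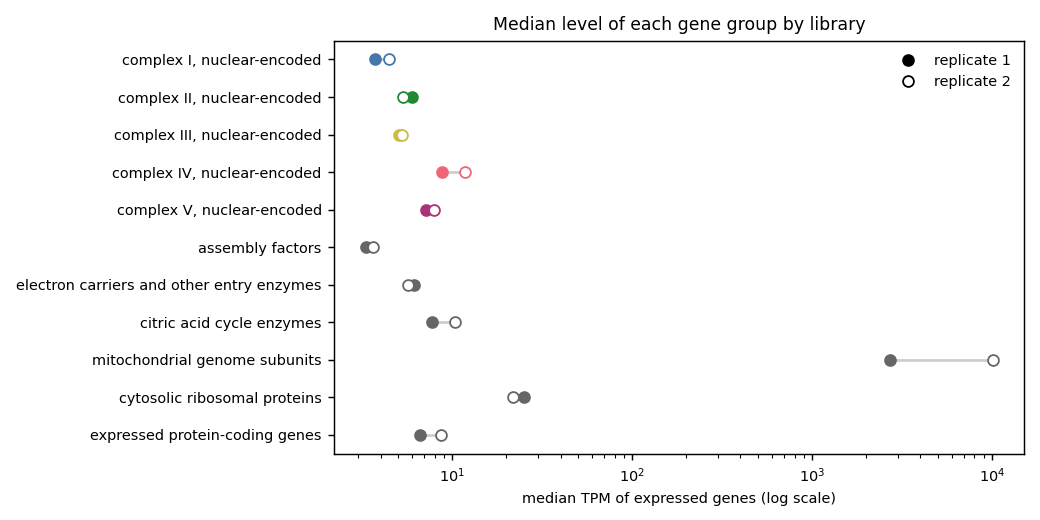
Median TPM of the expressed genes of each group on a log axis, with filled points for replicate 1 and open points for replicate 2. The nuclear-encoded complexes lie between 3.70 and 11.7 TPM and the ribosomal proteins above them, the assembly factors lie at 3.30 and 3.64 TPM, and the mitochondrial genome's subunits lie at 2701 and 10157 TPM.

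The replicates were compared by the log2 ratio of TMM-scaled counts, replicate 1 over replicate 2, in 76 members that passed a filter on low counts. The median ratio was 0.16, against 0.02 over 10686 protein-coding genes. Above 0 lay 51 of the 76 (67.1%), against 52.9% of 8550 expressed protein-coding genes. At 1.5-fold or more, 12 members were higher in replicate 1, against 9.99% of the protein-coding genes. Only Ndufv2 was lower by that much, against 4.46%. In the second quantification the median was 0.38 and 26 of 79 members were higher, against 11.9% of 14218 genes. With 1 library on each side there is no replicate check on these ratios and no p-value was computed.

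Most members of this comparison rested on few reads. The median count of the expressed members was 80.5 (mean of both replicates), against 408 for expressed protein-coding genes. The 95% counting interval of the ratio included 0 in 54 of the 76 members, lay above 0 in 18 and below 0 in 4. The 13 members with a mean count of 200 or more had ratios between -0.39 and 0.48, and none of them passed 1.5-fold. Of 5954 protein-coding genes at that depth, 6.40% were higher and 1.76% lower by 1.5-fold. The 12 higher members had mean counts between 20.5 and 144.

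Atp5k, subunit e of the ATP synthase, had 95 counts in replicate 1 and 24 in replicate 2, a log2 ratio of 1.36 (counting interval 0.76 to 2.13). Atp5o had 145 and 41.1 counts, a ratio of 1.22 (0.74 to 1.79). These 2 were the members whose interval lay wholly above 1.5-fold. The effective length of Atp5k was 192 bases in replicate 1, among the shortest, and 35.6% of the exon bases of Atp5o overlap genes of the opposite strand.

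Further members were higher in replicate 1 by smaller amounts. Ndufb11 had 78 and 26 counts (log2 ratio 0.97), Uqcrfs1 211 and 75 (0.91) and Sdhd 204 and 84 (0.70). Atp5d, Cox7a2 and Ndufa13 had log2 ratios of 0.63, 0.70 and 0.58, with counting intervals above 0. Ndufs5, Ndufa2, Ndufa1 and Uqcr10 had ratios of 0.80, 0.79, 0.75 and 0.65, with intervals that included 0. Ndufv2 had 99 counts in replicate 1 and 113 in replicate 2, a ratio of -0.75 (-1.16 to -0.36).

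By complex, the median ratio was 0.09 for complex I, 0.28 for complex II, 0.26 for complex III, 0.35 for complex IV and 0.13 for complex V, and all 5 lay above 0. Cytosolic ribosomal protein genes had a median of 0.47, with 31 of 83 higher by 1.5-fold or more and none lower. Genes of the mitochondrial genome had a median of -1.31, with 9 of 13 lower. Across expressed protein-coding genes the ratio fell with effective length, with a Spearman rho of -0.28 over 8550 genes, and across 75 members rho was -0.16. Genes are not independent replicates, and these values are descriptions. The members are short, with a median effective length of 578 bases in replicate 1 against 2142 bases. The part of length, of the starting RNA and of depth in the ratios was not tested.

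**Figure D4:**
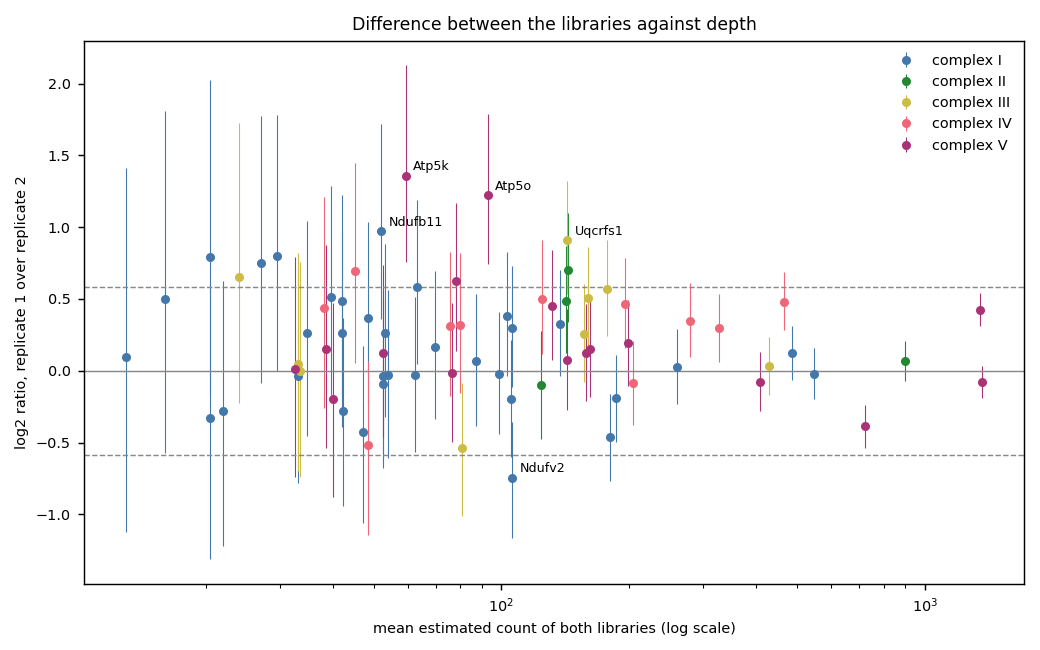
Log2 ratio of replicate 1 over replicate 2 of the 76 compared members against their mean estimated count (log axis), with vertical bars for the 95% counting interval and dashed lines at 1.5-fold. The 13 members at a mean count of 200 or more lie within the dashed lines, and Atp5k and Atp5o are the highest points.

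Transcript makeup was read from the annotated transcripts of each gene. Of the TPM of an expressed member, a median of 67.8% in replicate 1 and 69.3% in replicate 2 lay on protein-coding transcripts, against 66.8% and 68.2% for expressed protein-coding genes. Retained-intron transcripts are annotated non-coding forms that keep an intron. Nucleoplasmic RNA can hold unspliced RNA, and how far its reads were assigned to non-coding forms was not tested. The shares and the levels on coding transcripts therefore describe how reads were assigned, not measured isoforms. They were annotated for 45 of the 75 members, against 65.2% of expressed protein-coding genes, and held a median of 40.8% and 30.7% of the TPM of those genes, against 35.2% and 34.3%. Members with less than 50% on protein-coding transcripts in both replicates numbered 15 of 75, against 24.9% of the expressed protein-coding genes. In the second quantification the median on protein-coding transcripts was 60.8% and 62.1% for the members, against 53.5% and 54.3%. Of the summed estimated counts of the expressed members, 62.6% in replicate 1 and 59.3% in replicate 2 lay on protein-coding transcripts and 32.3% and 33.9% on retained-intron transcripts. The same shares over expressed protein-coding genes outside the mitochondrial genome were 74.3% and 74.4%, and 20.3% and 20.4%. The members were thus near other genes by the median of the first quantification, higher in protein-coding share by that of the second and lower by summed counts. None of these differences was tested.

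Among members the TPM ranged from wholly assigned to coding transcripts to almost wholly assigned to non-coding ones. Ndufb4, an accessory subunit of complex I, had 86.1% of its TPM on retained-intron transcripts in replicate 1 and 96.3% in replicate 2. Ndufb10 had 72.8% and 91.3%, but 35.6% and 47.6% in the second quantification, and Atp5f1 75.1% and 74.1%. Ndufa5 had 90.4% in replicate 1 but 18.05% in replicate 2, on 24 and 20 counts. Ndufs6 had the largest nonsense-mediated decay share, 20.7% and 40.2%, on 22 and 10 counts. In contrast, 19 members, among them Ndufv2, Ndufs8, Sdhd, Sdhc, Uqcrfs1 and Cox8a, had all of their TPM on protein-coding transcripts in both replicates. That is 25.3% of the expressed members, against 19.4% of expressed protein-coding genes. Some of them, such as Sdhd and Uqcrfs1, have only 1 annotated transcript, so the annotation fixed their share. Expressed members had a median of 4 annotated transcripts, against 6 for expressed protein-coding genes. In the second quantification Cox8a had 78.3% and 62.6% of its TPM on protein-coding transcripts.

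The order of levels changed when only protein-coding transcripts were summed. Atp5b had 33.7% of its TPM on them in replicate 1 and 24.4% in replicate 2, with the rest on retained-intron and processed transcripts. Its level on coding transcripts was 17.2 and 20.7 TPM. Cox7c then led with 26.3 and 29.8 TPM, ahead of Atp5a1 with 22.0 and 22.3 TPM and Cox4i1 with 17.6 and 20.7 TPM, and Atp5b came next by the mean of both. The leading transcript was a retained-intron form in 15 of the 75 members (20.0%), against 16.6% of expressed protein-coding genes.

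The ratio between replicates was set beside makeup as a description. The 23 compared members with 90% or more on protein-coding transcripts in both replicates had a median log2 ratio of 0.15, and 8 of them were higher by 1.5-fold. Among expressed protein-coding genes of that makeup the median was 0.08, and 291 of 2140 were higher. The 15 members with less than 50% had a median of -0.02, and none was higher by 1.5-fold. Over expressed protein-coding genes with less than 50% the median was 0.0080, with 166 of 2130 higher. The groups were not matched for depth, and the 12 higher members all had mean counts between 20.5 and 144. Summed over the 75 expressed members, protein-coding transcripts had a log2 ratio of 0.22 (counting interval 0.17 to 0.27) and retained-intron transcripts 0.07 (0.01 to 0.13). Over the expressed protein-coding genes outside the mitochondrial genome, both of these sums had a ratio of 0.08. With the mitochondrial genes included, protein-coding transcripts had -0.11.

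**Figure D5:**
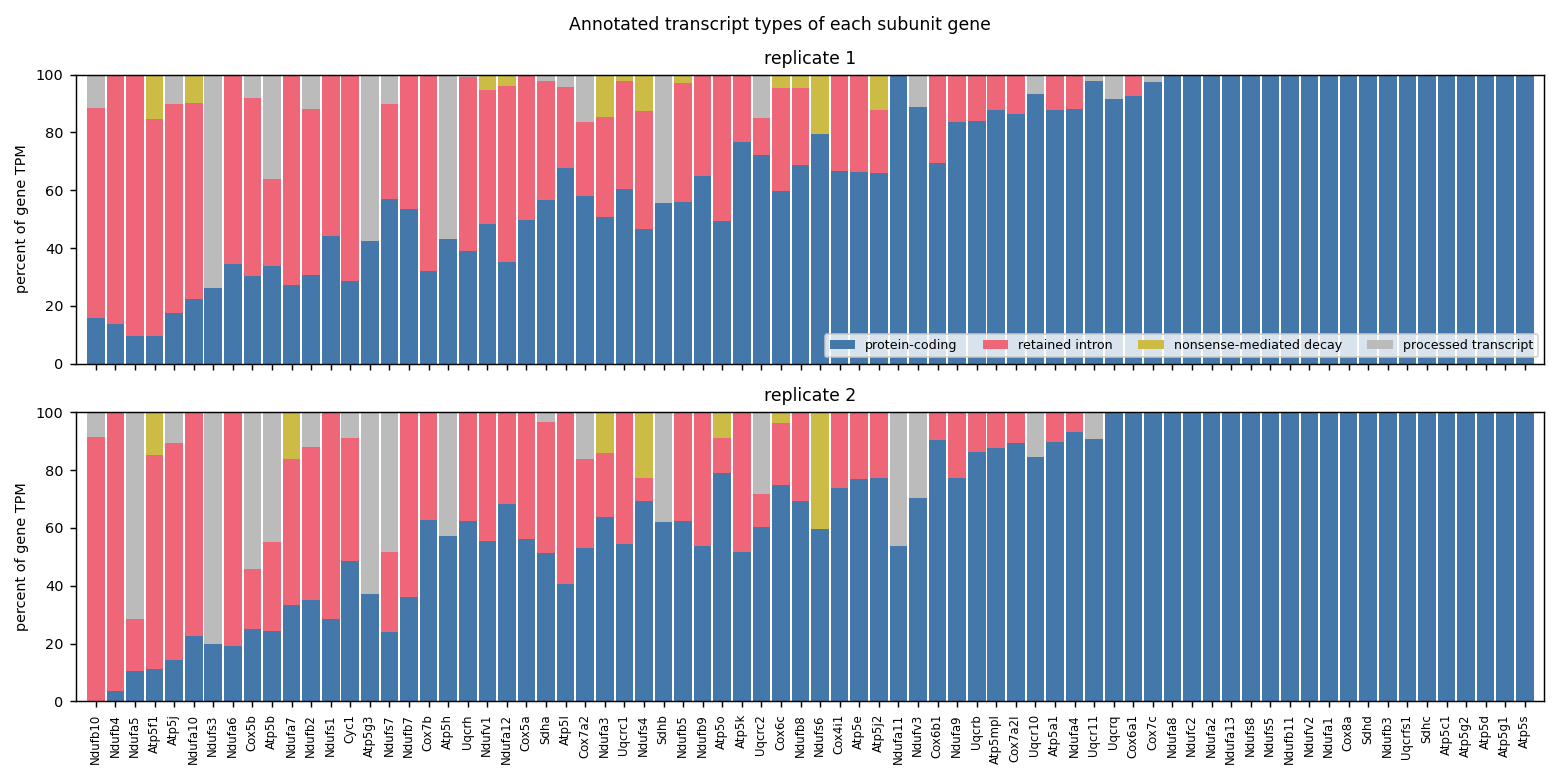
Percent of the TPM (first quantification) of 74 of the 75 expressed members on protein-coding, retained-intron, nonsense-mediated decay and processed transcripts, in replicate 1 (upper panel) and replicate 2 (lower panel), ordered by the mean protein-coding percent. Genes at the left, such as Ndufb10 and Ndufb4, lie mostly on retained-intron forms in both replicates, and 19 genes at the right are wholly protein-coding.

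Features of the loci were described as well. Expressed members spanned a median of 7456 bases with a coding length of 432 bases and 4 exons, against 24703 bases, 1404 bases and 10 exons. A head-to-head neighbour with its start within 1000 bases was found for 22 of 75 members, against 16.6% of expressed protein-coding genes. Examples are Sdhd with Timm8b at 98 bases, Atp5c1 with Kin at 83 bases, Sdha with Ccdc127 at 29 bases and Ndufa7 with Rps28 at 10 bases. Expressed cytosolic ribosomal protein genes had medians of 3243 bases, 453 bases and 5 exons, so short loci were not particular to the members. Of these ribosomal protein genes, 15 of 83 (18.1%) had a head-to-head neighbour. No test was made of these shares.

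Overlap with genes of the opposite strand was found for 23 of the 75, against 32.9%. The strand setting of the counting is not stated, so reads of such pairs may not be separated. Uqcrc2 shares 504 exon bases with Pdzd9, Ndufb5 616 with Mrpl47, and Atp5j 397 with Gabpa, which encodes a subunit of the factor GABP named above.

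Annotated pseudogenes that resemble the coding sequence (at least 90% identity over 80% of its length) were found for 30 of the 75 expressed members, against 9.97% of expressed protein-coding genes, 66 pseudogenes in all. Atp5l had 13, and Cox7c and Atp5h 5 each. In the first quantification these pseudogenes had 162 counts in replicate 1 and 88.7 in replicate 2, which is 3.28% and 2.97% of the counts of the genes they resemble. In the second they had 465 and 412 counts. The share was far higher, in the first quantification, for Ndufa12, with 32.4 and 21.1 counts on its pseudogene against 44.7 and 24.9 on the gene, Ndufb4, with 15.8 and 11.6 counts against 46.2 and 38.4, and Atp5g2, with 37.2 and 0 counts against 64.8 and 40. The levels of these 3 genes are uncertain. Pseudogene copies were not particular to the members, since 75 of 83 expressed cytosolic ribosomal protein genes had them, 955 in all.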

How the data were processed

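Per the labels, ribosomal RNA was depleted from nucleoplasmic RNA before sequencing, in 1 group of 2 replicates. Per the file headers and labels, one quantification went through an alignment to transcripts (assembly mm10, GENCODE M21) and yielded tables by gene and by transcript, and another took its transcript values straight from the reads, in 10 files per library. The names of the aligner and of the quantifiers were not given in the sources. Estimated counts, as deposited, are unnormalized read numbers that can be fractional. TPM, as deposited, add up to one fixed total per library, with small RNAs among the features. FPKM, as deposited, served for an alternative only. For Atp5b and Cox6b2 the text gives the lower and upper TPM limits (unit signal) that the authors deposited. The isoform percent that the authors deposited was set aside, and shares by transcript type were summed from transcript TPM.

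Features with an effective length under 200 took 73.9% of TPM in replicate 1 and 57.0% in replicate 2, which lowers the TPM of longer genes unequally. The ratio between libraries therefore used counts, rounded to whole numbers, scaled by TMM with a prior count of 2 after filterByExpr (edgeR 4.0.16 in R 4.3.3), and DESeq2 1.42.0 size factors were an alternative. It was tested on simulated data first. Rows that name no gene held 1.14% and 0.304% of counts. Tables were handled in Python with pandas, numpy and scipy, and pseudogenes were searched with megablast. Coding sequences were aligned end to end in pairs, and identity counts aligned bases only. The 95% counting intervals are exact binomial and cover counting error only.

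The members and gene lists were chosen with earlier results of these data known. The values of 1 member are not reported here singly, and it enters only counts, medians and the plot of ratios. Every other member is shown in a plot or named. The rule for naming took the 3 highest and the lowest gene of each complex, the families with tissue-restricted forms, core and catalytic subunits, members past 1.5-fold, and the 3 highest in retained-intron or decay transcripts. Other genes named were chosen after their values were seen.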

Additional observations from a re-analysis of the deposited data

How the results depend on the processing

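Of 75 values recomputed under an alternative, 52 stayed within the spread of the replicates, the counting error or 1.5 times the count. The other 23 moved further. Only the median log2 ratio has a direction that could change, and it stayed above 0 in each alternative. The median level of the 85 members was 5.15 TPM; it was 5.88 in the second quantification, 6.78 as FPKM and 19.6 when TPM were rescaled to protein-coding genes, and without 1 replicate it ranged from 4.49 to 5.15. The number at 1 TPM or more in both replicates was 75, and 34 at 5 TPM or more; without 1 replicate it ranged from 75 to 76. The median log2 ratio of 0.16 was 0.38 in the second quantification, where 26 members were higher by 1.5-fold. It was 0.0296 at a mean count of 200 or more, with 13 members left, of which 0 were higher and 0 lower, against 6.40% and 1.76% of 5954 protein-coding genes. In the main setting 12 of 76 members (15.8%) were higher by 1.5-fold. Without members that overlap a gene of the opposite strand the median was 0.0735, with 7 of 53 higher (13.2%, against 9.74% of protein-coding genes). Without members with a pseudogene copy it was 0.11, with 7 of 46 higher (15.2%, against 9.85%). These 2 alternatives were chosen after seeing the data and remove members by construction. The mean of the median protein-coding percents was 68.6%, and 61.5% in the second quantification, 78.7% from estimated counts and 57.8% at 5 TPM or more; without 1 replicate it ranged from 67.8% to 69.3%. The retained-intron percent ranged from 30.7% to 40.8% without 1 replicate. FPKM and rescaled TPM change all genes of a library by the same factor, so these moves say nothing about the members. A higher TPM cut can only lower the number of genes that reach it. The cause of the other moves was not tested. No paired analysis was possible because there is 1 group. Depth limits the ratios, since the expressed members had a median mean count of 80.5.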
